A study of Mus musculus with 16 samples.

Results

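The TREM, SIRP and Siglec signaling receptors of myeloid cells were followed across the suppressor cell subsets of tumor-bearing mice. The set held 10 genes named by family and function: Trem1, Trem3, Treml2, Tyrobp, Hcst, Sirpa, Siglece, Cd33, Pilra and Cd300lf. They were chosen with earlier results of these data known. All 10 were found among the 24421 gene symbols of each count file, and all 10 passed the filter on low counts in every comparison. Their level was read in 16 libraries from the spleens of 8 mice that carried subcutaneous B16.F10 tumors, a transplantable melanoma line of C57BL/6 origin. From each spleen, monocytic myeloid-derived suppressor cells (M-MDSCs, CD11b-high Ly6C+ Ly6G-) and granulocytic ones (G-MDSCs, CD11b-high Ly6C- Ly6G+) were sorted and sequenced from the 3′ end of their mRNAs. The 4 groups of 4 libraries were M-MDSCs and G-MDSCs of wild-type (WT) C57BL/6 mice (C57BL/6J by the study's methods) and of Nlrp3-/- mice of C57BL/6 background, in which a cassette with enhanced green fluorescent protein interrupts the gene for the inflammasome sensor NLRP3. All 4 groups carried the tumor and none was treated otherwise. Mice were matched for age and sex by the study, whose methods state the age in weeks as a range for all experiments and not for each mouse. The WT mice were purchased and the mutant came as a separate line, so genotype and colony cannot be told apart. The study reports smaller B16.F10 tumors in Nlrp3-/- than in WT mice and a shifted balance of M-MDSCs and G-MDSCs in the spleen. Genotype and tumor burden therefore cannot be told apart here either.

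These genes belong to the paired receptor systems, in which related activating and inhibitory receptors tune the same myeloid cell. Activating receptors such as TREM-1 have short tails and signal through a partner adaptor, DAP12 (encoded by Tyrobp) or DAP10 (encoded by Hcst). DAP12 carries an immunoreceptor tyrosine-based activation motif (ITAM) that recruits the kinase Syk. Inhibitory receptors such as SIRPα, Siglec-E, PILRα and CD300f carry inhibitory motifs (ITIMs) that recruit the phosphatases SHP-1 and SHP-2. SIRPα reads CD47, the signal that restrains phagocytosis, and Siglecs read sialic acid. Neutrophils and monocytes are the main carriers of TREM-1, whose engagement amplifies inflammatory responses.

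Several members lie close together in the genome (mm10, GENCODE M21). Trem1 (chr17:48232768-48246924), Trem3 (chr17:48247777-48258841) and Treml2 (chr17:48299498-48312533) sit on the plus strand of chromosome 17. Trem1 and Trem3 are separated by 852 bases, and Treml4 is the single protein-coding gene between Trem3 and Treml2. The adaptor genes Tyrobp (chr7:30413760-30417585, plus strand) and Hcst (chr7:30417712-30419854, minus strand) point toward each other, with 126 bases between their 3′ ends. Their reads were assigned by strand in the deposited counts. Cd33 (chr7:43524216-43544428) and Siglece (chr7:43651070-43660161) lie on the minus strand of chromosome 7 with 106641 bases between them. Sirpa (chr2:129592835-129632228, plus strand), Pilra (chr5:137821952-137836281, minus strand) and Cd300lf (chr11:115116214-115133992, minus strand) are on chromosomes of their own.

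The sequence before the start is shown for Trem1, Cd33 and Cd300lf, the members with a promoter entry whose level differed most between the subsets, by over 4 on the log2 scale in both genotypes. RefSeq promoter entries (GRCm38.p6) matched 6 of the 10 members, Trem1, Hcst, Siglece, Cd33, Pilra and Cd300lf. The 250 bases before each RefSeq start were read 5′ to 3′ on the gene's strand. The RefSeq start of Cd33 lies inside the longer GENCODE gene given above, so its 250 bases do not precede the GENCODE start. Capitals mark GAGGAA, the core recognized by the myeloid ETS factor PU.1, on either strand (TTCCTC where it is on the opposite one).
Trem1 (chr17:48232489-48232738, plus strand): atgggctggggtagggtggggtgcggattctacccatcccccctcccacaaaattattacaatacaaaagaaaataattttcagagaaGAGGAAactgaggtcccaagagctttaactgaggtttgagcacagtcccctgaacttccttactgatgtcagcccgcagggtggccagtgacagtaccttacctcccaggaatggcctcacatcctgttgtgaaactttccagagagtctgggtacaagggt
Cd33 (chr7:43533172-43533421, minus strand): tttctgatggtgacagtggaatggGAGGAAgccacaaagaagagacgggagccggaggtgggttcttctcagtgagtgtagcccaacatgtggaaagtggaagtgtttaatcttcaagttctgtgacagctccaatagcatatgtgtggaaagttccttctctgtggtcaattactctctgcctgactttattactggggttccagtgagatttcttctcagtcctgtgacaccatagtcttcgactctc
Cd300lf (chr11:115133993-115134242, minus strand): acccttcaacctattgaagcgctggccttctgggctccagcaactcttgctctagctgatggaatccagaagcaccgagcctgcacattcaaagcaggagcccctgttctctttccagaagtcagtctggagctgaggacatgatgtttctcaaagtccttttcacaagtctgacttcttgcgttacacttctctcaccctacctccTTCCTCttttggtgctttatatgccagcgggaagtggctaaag
Of the 6 members with an entry, 5 held GAGGAA on at least 1 strand, all but Hcst, and Siglece held 3 matches. Among all 32851 promoter entries, 23.3% held it in the same 250 bases. A C/EBP-type motif, TTGCNNAA on either strand, which does not overlap with GAGGAA, was present in 1 of the 6 members, Pilra, and in 9.6% of all entries. These matches describe letters only, and binding was not measured.

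The depth was 2295967 to 6079866 counts per library, at which 3 counts correspond to 0.348 to 1.17 CPM. CPM is the count scaled to a common library size by the trimmed mean of M-values (TMM) over the 16 libraries. Nlrp3 was 40.6 to 88.7 CPM in WT M-MDSCs and 0.513 to 1.87 CPM in Nlrp3-/- M-MDSCs. In G-MDSCs it was 251.4 to 330.3 CPM in WT and 5.5 to 13.6 CPM in Nlrp3-/-, so that every library matched its genotype label. Summed monocyte markers (8 genes) were 5206.7 to 8578.8 CPM in M-MDSCs and 785.9 to 1345.3 CPM in G-MDSCs, and summed neutrophil markers were 112082.8 to 168917.6 CPM in G-MDSCs. In M-MDSCs the neutrophil sum was 1451.6 to 2529.7 CPM in 7 libraries and 8738.2 CPM in WT replicate 2, which stood apart from its group. With the red pulp macrophage and natural killer (NK) cell markers described beside the genotype results, these sums are plotted by library.

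**Figure D1:**
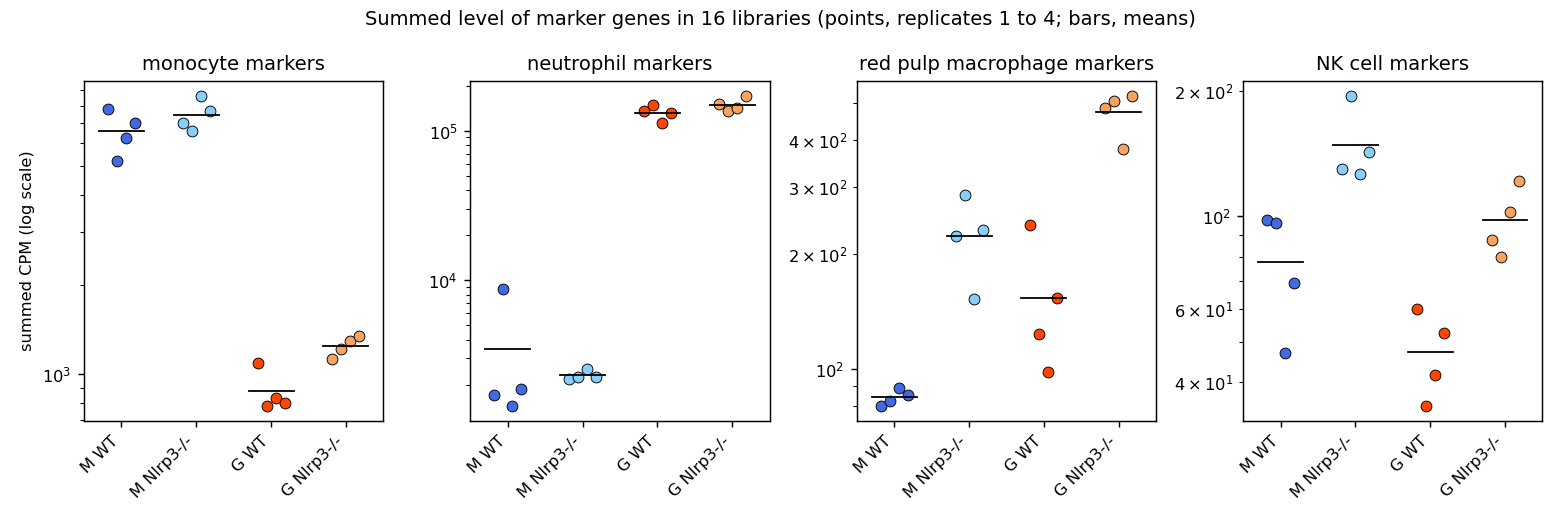
Summed CPM (log scale) of monocyte, neutrophil, red pulp macrophage and NK cell marker genes in each of the 16 libraries, with points for replicates 1 to 4 and bars for means. Neutrophil markers separate the subsets, M-MDSC WT replicate 2 lies above its group at 8738.2 CPM, and macrophage and NK markers are higher in Nlrp3-/- than in WT libraries of the same subset.

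The first question was how the receptors differ between the subsets of the same spleen. Of the 10 members, 9 rose in G-MDSCs in WT mice and the same 9 in Nlrp3-/- mice. A call required a false discovery rate (FDR) under 0.05 by edgeR's quasi-likelihood test and a change of over 1.5-fold. Across all genes tested, 26.3% were called higher in G-MDSCs in WT and 23.7% in Nlrp3-/-. The median log2 fold change of the members was 3.06 in WT and 3.63 in Nlrp3-/-, against -0.05 and -0.12 over all genes tested. These contrasts describe a set chosen with earlier results known and do not test it. Sirpa was the member without a call in either genotype in these fits, which had no block for the mouse. With the mouse as a block, Sirpa was also called in Nlrp3-/-, as given below. The libraries of the subsets did not overlap for these 9 members in either genotype, as was true of 25.5% of genes tested in that direction in WT and 26.2% in Nlrp3-/-. Besides the neutrophil sum, other marker sums were higher in G-MDSCs than in M-MDSCs. The 6 B cell markers found summed to 78.7 to 151.5 CPM in M-MDSCs and 210.2 to 314.3 CPM in G-MDSCs, with Pax5 at 0 in Nlrp3-/- G-MDSCs. The 8 dendritic cell markers summed to 62.7 to 149.9 CPM and 211.4 to 311.5 CPM, with Itgax, an integrin gene that other myeloid cells also express, at 150.0 to 267.3 CPM of the latter and Xcr1 at 0 in Nlrp3-/- G-MDSCs. The 7 basophil and mast cell markers summed to 7.53 to 20.5 CPM in M-MDSCs and 2164.8 to 4270.5 CPM in G-MDSCs, nearly all of it Hdc (2157.6 to 4262.1 CPM), which encodes histidine decarboxylase. Without Hdc this sum was 1.03 to 2.67 CPM and 2.47 to 8.38 CPM, with the receptor gene Fcer1a at 0 in WT M-MDSCs and Nlrp3-/- G-MDSCs. The part of B and dendritic cells in the higher member levels was not tested. By the sample descriptions, both comparisons take M-MDSCs and G-MDSCs of the same 4 mice. In these bulk samples, fewer cells of a type and less RNA per cell cannot be told apart. The markers used for sorting, Ly6C and Ly6G, are not among the members.

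Among the activating receptors, Trem1 showed the widest separation. It was 55.5, 63.2, 43.3 and 54.0 CPM in WT M-MDSCs (replicates 1 to 4) and 1117.4, 959.5, 1358.6 and 1189.6 CPM in WT G-MDSCs. In Nlrp3-/- mice it was 39.9, 23.3, 20.6 and 43.6 CPM in M-MDSCs and 1649.2, 1414.7, 1129.7 and 2065.4 CPM in G-MDSCs. Every G-MDSC library lay far above every M-MDSC library, and the genotypes overlapped within each subset. The log2 fold change of G-MDSC over M-MDSC was 4.42 (SE 0.20, FDR = 1.74e-08 by edgeR) in WT and 5.48 (SE 0.31, FDR = 4.6e-09 by edgeR) in Nlrp3-/-. M-MDSC WT replicate 2, the library with the high neutrophil markers, held the highest Trem1 level of its group.

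Trem3, the neighbor of Trem1 and another receptor that pairs with DAP12, rose in G-MDSCs as well. It was 12.4, 26.0, 10.7 and 14.4 CPM in WT M-MDSCs, where replicate 2 was again the highest, and 12.8, 4.77, 5.21 and 8.47 CPM in Nlrp3-/- M-MDSCs. In G-MDSCs it was 60.0, 80.7, 154.1 and 164.8 CPM in WT and 179.5, 124.8, 95.0 and 94.1 CPM in Nlrp3-/-. The subsets did not overlap in either genotype. The rise in G-MDSCs was 7.16-fold in WT (FDR = 4.48e-05 by edgeR) and 14.2-fold in Nlrp3-/- (FDR = 3.86e-07 by edgeR).

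Treml2, the TREM-like transcript of the same locus, was 91.8, 26.8, 22.6 and 31.5 CPM in WT M-MDSCs and 393.3, 204.4, 141.3 and 216.1 CPM in WT G-MDSCs. Replicate 1 was the highest in both subsets, and the subsets did not overlap. The Nlrp3-/- mice had 17.0, 26.9, 28.8 and 18.7 CPM in M-MDSCs and 151.4, 130.4, 139.2 and 152.5 CPM in G-MDSCs. The rise was 5.53-fold in WT (SE 0.45 on the log2 scale) and 5.85-fold in Nlrp3-/- (SE 0.19).

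The adaptors rose less than the receptor Trem1. Tyrobp, which encodes DAP12, was 1050.5, 816.9, 1080.0 and 878.1 CPM in WT M-MDSCs and 2176.1, 2125.2, 3315.8 and 2546.4 CPM in WT G-MDSCs. Nlrp3-/- libraries gave 1370.4, 986.1, 1220.7 and 1314.3 CPM in M-MDSCs and 3933.7, 4006.6, 3583.6 and 4579.9 CPM in G-MDSCs. The subsets did not overlap, and the rise was 2.66-fold in WT and 3.03-fold in Nlrp3-/-, with log2 fold changes of 1.41 (SE 0.20) and 1.60 (SE 0.16). The log2 changes of Trem1 lay above those of Tyrobp by many of these standard errors, which is a description across genes and was not tested. 

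Hcst, which encodes DAP10, was 51.8, 53.0, 52.0 and 34.5 CPM in WT M-MDSCs and 63.6, 70.0, 93.0 and 68.4 CPM in Nlrp3-/- M-MDSCs. In G-MDSCs it was 344.3, 332.1, 316.2 and 227.7 CPM in WT and 387.4, 396.4, 422.9 and 479.7 CPM in Nlrp3-/-. It was the single member whose 4 groups were all apart, in the order G-MDSC Nlrp3-/-, G-MDSC WT, M-MDSC Nlrp3-/-, M-MDSC WT. The rise in G-MDSCs was 6.36-fold in WT and 5.29-fold in Nlrp3-/-.

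**Figure D2:**
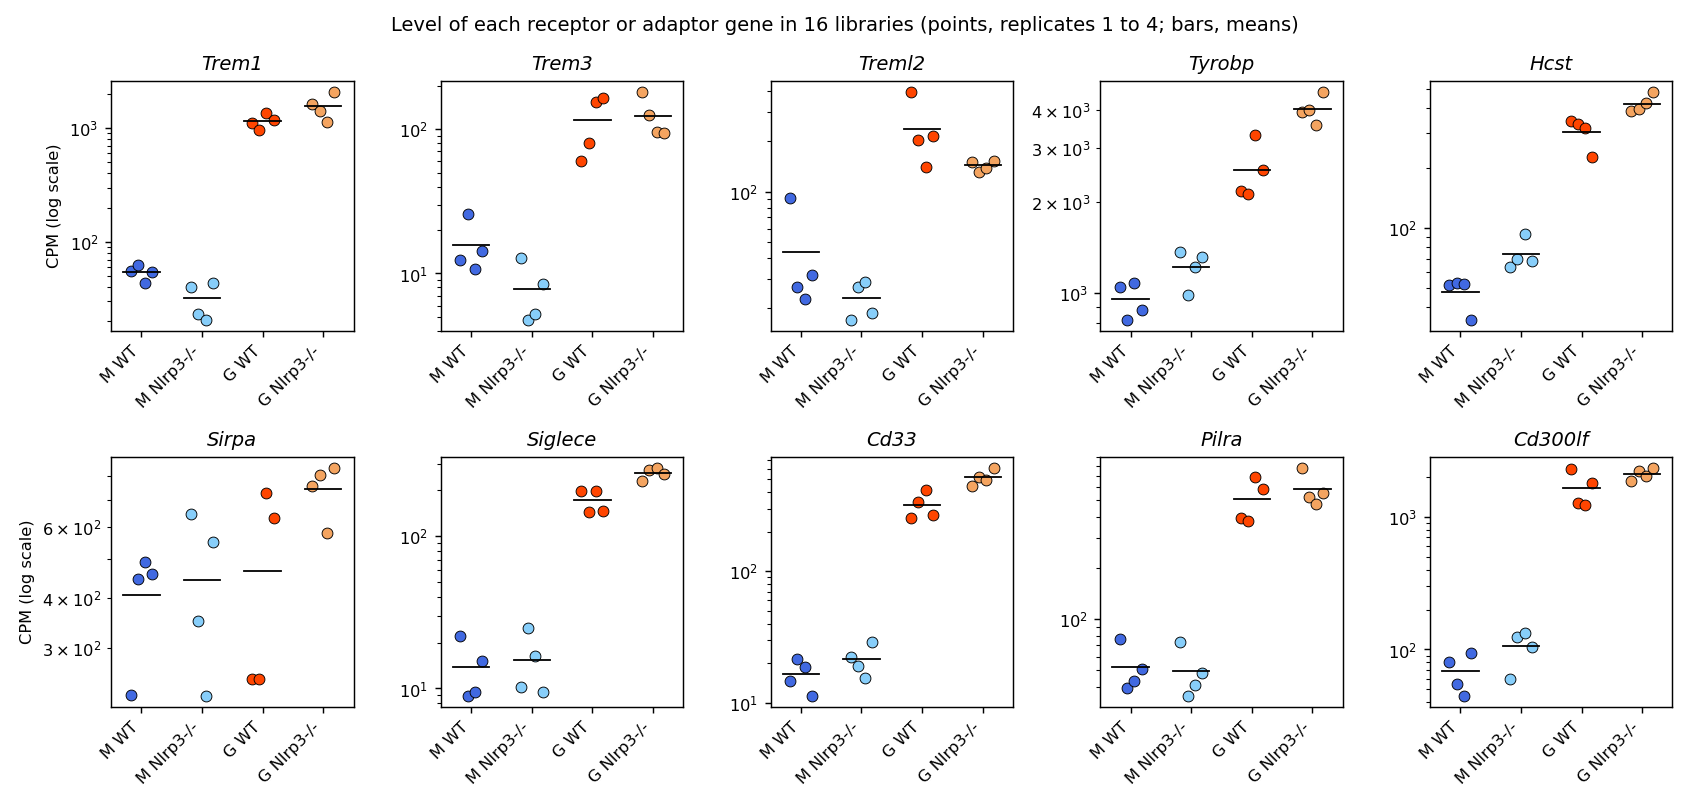
CPM (log scale) of the 10 receptor and adaptor genes in each library of the 4 groups, with points for replicates 1 to 4 and bars for means. For 9 genes every G-MDSC point lies above every M-MDSC point, whereas the subsets overlap for Sirpa in both genotypes.

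Of the inhibitory and sialic acid-binding receptors, Cd33 and Cd300lf separated the subsets most. Cd33, a Siglec of myeloid cells, was 14.7, 21.5, 18.5 and 11.3 CPM in WT M-MDSCs and 256.0, 334.5, 415.0 and 268.2 CPM in WT G-MDSCs. In Nlrp3-/- mice it was 22.3, 18.9, 15.4 and 29.0 CPM in M-MDSCs and 446.7, 521.9, 499.3 and 609.9 CPM in G-MDSCs. The rise was 19.0-fold in WT (FDR = 6.97e-08 by edgeR) and 22.1-fold in Nlrp3-/- (FDR = 1.8e-09 by edgeR).

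Cd300lf, which encodes the lipid-binding receptor CD300f, was 80.5, 55.0, 44.9 and 94.8 CPM in WT M-MDSCs and 2301.7, 1274.8, 1220.2 and 1787.0 CPM in WT G-MDSCs. The Nlrp3-/- mice had 59.6, 124.3, 132.6 and 105.0 CPM in M-MDSCs and 1876.0, 2214.7, 2036.4 and 2330.8 CPM in G-MDSCs. No G-MDSC library came near an M-MDSC library. The log2 fold change was 4.59 (SE 0.31) in WT and 4.22 (SE 0.23) in Nlrp3-/-.

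Siglece, the mouse Siglec-E, was 22.1, 8.98, 9.44 and 15.1 CPM in WT M-MDSCs and 199.7, 144.3, 197.4 and 147.3 CPM in WT G-MDSCs. Nlrp3-/- libraries gave 10.3, 25.0, 16.3 and 9.49 CPM in M-MDSCs and 229.6, 271.7, 280.4 and 258.3 CPM in G-MDSCs. The M-MDSC groups overlapped, and the subsets were apart, with a rise of 12.5-fold in WT and 16-fold in Nlrp3-/-. Pilra, whose product binds sialylated O-glycoproteins, was 76.8, 39.2, 43.4 and 50.6 CPM in WT M-MDSCs and 393.3, 376.7, 685.5 and 584.9 CPM in WT G-MDSCs. In Nlrp3-/- mice it was 72.8, 35.4, 40.7 and 48.4 CPM in M-MDSCs and 775.7, 527.6, 479.0 and 555.7 CPM in G-MDSCs. Its rise was 9.73-fold in WT and 10.9-fold in Nlrp3-/-, and reads of the related Pilrb1 and Pilrb2 may not be fully told apart from its own.

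Sirpa, the CD47 receptor, followed another course. It was 230.2, 444.5, 489.3 and 458.4 CPM in WT M-MDSCs and 251.3, 252.0, 728.3 and 630.0 CPM in WT G-MDSCs. The Nlrp3-/- mice had 643.2, 350.4, 229.1 and 548.2 CPM in M-MDSCs and 757.2, 806.5, 580.2 and 837.5 CPM in G-MDSCs. Neighbors in the order of the group means all overlapped. G-MDSC over M-MDSC was 0.20 on the log2 scale (SE 0.36, FDR = 0.656 by edgeR) in WT and 0.62 (SE 0.27, FDR = 0.0687 by edgeR) in Nlrp3-/-. Within mice, the G-MDSC library was the higher in 4 of 4 Nlrp3-/- mice and in 3 of 4 WT mice. With the mouse as a block, Sirpa was called in Nlrp3-/- (log2 fold change 0.73, FDR = 0.00141 by edgeR) and remained without a call in WT (0.09, FDR = 0.705 by edgeR). Its sign depended on the scaling: by library size alone, without TMM, it was -0.54 in WT and -0.11 in Nlrp3-/-.

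**Figure D3:**
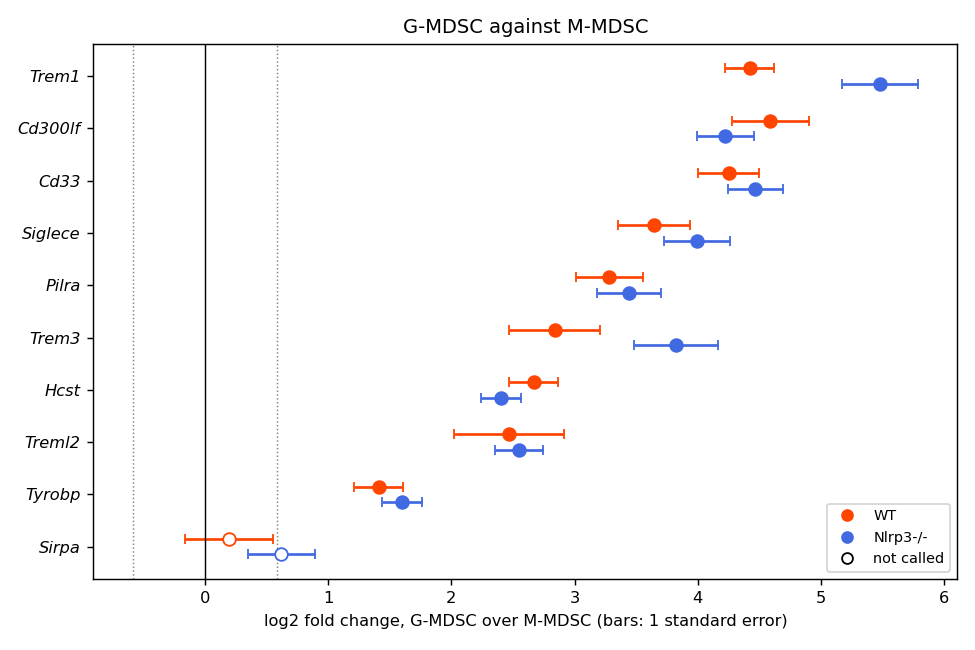
log2 fold change of G-MDSC over M-MDSC in WT and Nlrp3-/- mice for the 10 genes, with bars of 1 standard error, open points for genes not called and dotted lines at 1.5-fold. Points run from Sirpa near 0 to Trem1 at 4.42 and 5.48. The fits had no block for the mouse.

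The scale matters for such a wide contrast, since the 20 most abundant genes took 15.2% to 30.0% of the counts in M-MDSCs and 27.9% to 43.2% in G-MDSCs. By library size alone the median log2 fold change of all genes moved to -0.79 in WT and -0.83 in Nlrp3-/-, and the share of calls that were higher in G-MDSCs moved from 49.2% to 18.7% in WT and from 46.4% to 18.5% in Nlrp3-/-. By upper-quartile scaling that share was 38.2% in WT. The 9 members stayed called as higher in G-MDSCs in 18 of 18 alternative settings in each genotype, this one included.

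The rest of the families moved in both directions between the subsets. Of 14 other TREM, SIRP, Siglec, PILR and CD300 genes tested in WT, 8 rose and 2 fell in G-MDSCs, and of 14 tested in Nlrp3-/-, 9 rose and 2 fell. Beside the shares called higher given above, 27.1% of all genes tested were called lower in G-MDSCs in WT and 27.4% in Nlrp3-/-, and the counts of this and the following lists were not tested against these shares. The genes that fell were the same pair in both genotypes, Cd300lg and Trem2. Trem2, a DAP12-coupled receptor of macrophages, was 17.5 to 45.8 CPM in M-MDSCs and at most 3.1 CPM in G-MDSCs. Cd300lg, known from endothelium, was 31.7 to 83.0 CPM in M-MDSCs and at most 0.524 CPM in G-MDSCs, where the 8 libraries held 3 counts in all (1 in WT and 2 in Nlrp3-/-). Trem2 thus ran against Trem1 although both pair with DAP12. Its log2 fold change was -5.14 (SE 0.50) in WT and -4.61 (SE 0.54) in Nlrp3-/-.

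Among the family genes that rose, Cd300ld was 19.0 to 35.9 CPM in M-MDSCs and 267.9 to 570.1 CPM in G-MDSCs, with log2 fold changes of 3.73 (SE 0.24) in WT and 4.17 (SE 0.19) in Nlrp3-/-. Cd300lb, an activating CD300 receptor, had log2 fold changes of 2.36 and 2.59, and Pilrb2, an activating partner of the PILR pair, 2.92 and 2.78. Pilrb1 rose by 2.32 and 2.43 on the same scale. These paralogs share sequence, and how reads that map to several genes were split is not given in the sources used here. Treml4, which lies between Trem3 and Treml2, was 25.5 to 40.1 CPM in WT M-MDSCs and 31.9 to 60.1 CPM in WT G-MDSCs, a log2 difference of 0.42 (SE 0.22) that was not called, while it rose by 0.65 (SE 0.24, FDR = 0.0345 by edgeR) in Nlrp3-/-. Between the neighbors Trem3 and Treml2, Treml4 thus had the smallest log2 difference between the subsets of the 4 genes in this stretch of chromosome 17.

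Beyond these families, other paired receptors also moved in both directions between the subsets, more of them higher in G-MDSCs. Of 21 tested, 11 rose and 2 fell in G-MDSCs in either genotype. Lilr4b rose by 3.49 (SE 0.20) in WT and 3.45 (SE 0.20) in Nlrp3-/- on the log2 scale. Cd84 and the DAP12-coupled lectin Clec5a rose by 2.62 and 2.84 in WT. Cd101 was at most 10.2 CPM in M-MDSCs and 206.4 to 793.0 CPM in G-MDSCs, and rose by 6.33 in Nlrp3-/-. Lilra6 rose by 2.15 in Nlrp3-/-. Clec4a3, a lectin of monocytes, fell by 2.92 in WT and fell by 2.88 in Nlrp3-/-.

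Of 29 ITAM signaling genes tested, 17 rose and 1 fell in WT G-MDSCs, and 15 rose and 1 fell in Nlrp3-/-. The GTPase gene Rac2 rose by 2.14 in WT and 2.27 in Nlrp3-/- on the log2 scale, and the Src-family kinase gene Fgr by 1.43 and 1.34. Pik3r1 and Nfatc1 rose by 1.5 and 1.38 in WT, and Pik3r5 by 1.49 in Nlrp3-/-. Lat2, an adaptor of ITAM signaling, fell by 2.07 in Nlrp3-/-. In WT its mean was 217.6 CPM in M-MDSCs and 56.8 CPM in G-MDSCs. Of the ITIM effectors and brakes, 6 of 19 rose and 4 fell in WT, and 6 of 20 rose and 4 fell in Nlrp3-/-. Ptpn6, which encodes SHP-1, rose by 1.38 in Nlrp3-/- and Skap2 by 1.30, while Pag1 rose by 2.62 in WT and 2.81 in Nlrp3-/-. Inpp5d, which encodes SHIP-1, rose by 1.14 in WT. Inppl1, which encodes its relative SHIP-2, fell by 3.77 in WT and fell by 3.57 in Nlrp3-/-. Sh2d1b1 fell by 3.46 in WT.

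Of 18 ligand and sialic acid genes tested, 7 rose and 6 fell in G-MDSCs in either genotype, where 23.7% to 26.3% of all genes were called higher and 27.1% to 27.4% lower. The sialyltransferase gene St3gal6 was 1.67 to 5.05 CPM in M-MDSCs and 284.3 to 356.8 CPM in G-MDSCs, with log2 fold changes of 6.37 (SE 0.23) and 6.56 (SE 0.27). Pglyrp1, whose product is a ligand of TREM-1, was 10.6 to 31.9 CPM in M-MDSCs and 273.0 to 394.2 CPM in G-MDSCs, and rose by 3.88 (SE 0.24) in WT and 4.22 (SE 0.20) in Nlrp3-/-. Cd24a, whose product is a sialylated ligand of Siglecs, rose by 3.38 and 3.61. The sialidase gene Neu1 rose by 2.18 in WT and the ganglioside synthase gene St3gal5 by 3.73 in Nlrp3-/-. In G-MDSCs, Trem1 and the gene for its ligand Pglyrp1 were thus both above their level in M-MDSCs in every library.

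The second question was what differed between Nlrp3-/- and WT mice in each subset. In M-MDSCs, 1 of 10 members was called, Hcst, which rose in Nlrp3-/-. Of all genes tested, 10.6% were called in either direction, 3.51% as higher and 7.1% as lower. The share of calls that were higher moved from 33.1% to 54.6% by library size alone, which moved the median of all genes to 0.17 on the log2 scale. The members' median log2 fold change was 0.16, against 0.07 over all genes tested. Hcst had a mean of 47.8 CPM in WT (SD 8.88, n = 4) against 73.7 CPM (SD 13.1, n = 4) in Nlrp3-/-, and the groups did not overlap, as was true of 19.3% of all genes tested. Its rise was 1.56-fold (log2 0.64, SE 0.18, FDR = 0.0433 by edgeR). After correction for GC content and length it was 0.35 on the log2 scale (FDR = 0.186 by edgeR). The longest annotated Hcst transcript has 442 bases, of which 57.2% are G or C, above 89.0% of genes tested. When libraries were omitted in turn, the call remained without Nlrp3-/- replicate 1 and was lost in the other 7 of 8 fits, where FDRs ran up to 0.12. Without WT replicate 4, the lowest library, the change was 0.51 (FDR = 0.12 by edgeR).

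In the same M-MDSCs the 3 TREM locus members had negative log2 fold changes without a call. Trem1 had a mean of 54.0 CPM in WT (SD 8.19, n = 4) against 31.9 CPM (SD 11.6, n = 4) in Nlrp3-/-, and 1 Nlrp3-/- library, replicate 4 at 43.6 CPM, reached above the lowest WT library at 43.3 CPM. The log2 fold change was -0.72 (SE 0.26, FDR = 0.0863 by edgeR). Trem1 was called with DESeq2 (-0.74, FDR = 0.0436) and in the edgeR model of all 16 samples (-0.75, FDR = 0.0474). Trem3 was -0.97 (SE 0.38, FDR = 0.114) and Treml2 -0.91 (SE 0.40, FDR = 0.149) in the same edgeR fit. Without WT replicate 2, the library with the high neutrophil markers, Trem1 was -0.62 (FDR = 0.23) and Trem3 -0.59 (FDR = 0.371). Without Nlrp3-/- replicate 1, Trem1, Trem3, Hcst and Cd300lf were all called, with Trem1 at -0.90 (FDR = 0.0305) and Trem3 at -1.38 (FDR = 0.0212). In the other 7 fits with a library omitted, 0 members were called. Without WT replicate 1, the highest Treml2 library at 91.8 CPM, the other WT libraries were 22.6 to 31.5 CPM and the Nlrp3-/- libraries 17.0 to 28.8 CPM, and the Treml2 change was -0.205 (FDR = 0.576 by edgeR).

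The other M-MDSC members were not called. Cd300lf had a mean of 68.8 CPM in WT (SD 22.9, n = 4) against 105.4 CPM (SD 32.6, n = 4) in Nlrp3-/- (log2 fold change 0.64, SE 0.27, FDR = 0.136 by edgeR). Tyrobp was 0.39 (SE 0.17, FDR = 0.155) and Cd33 0.40 (SE 0.26, FDR = 0.332) on the log2 scale. Sirpa at 0.17, Siglece at 0.16 and Pilra at -0.05 were within 1 standard error of 0.

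In G-MDSCs, 2 of 10 members were called, Cd33 as higher and Treml2 as lower in Nlrp3-/-. Of all genes tested, 16.4% were called, 4.7% as higher and 11.7% as lower. The share of calls that were higher moved from 28.6% to 48.1% by library size alone (with a median of all genes of 0.16), to 43.4% in the model of all 16 samples and to 39.1% by upper-quartile scaling. The members' median log2 fold change was 0.36, against 0.03 over all genes tested. Of the 10 members, 4 had groups that did not overlap, Tyrobp, Hcst, Siglece and Cd33, all higher in Nlrp3-/-, compared with 12% of all genes tested in that direction.

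Cd33 had a mean of 318.4 CPM in WT (SD 73.0, n = 4) against 519.4 CPM (SD 68.0, n = 4) in Nlrp3-/-. The highest WT library was 415.0 CPM and the lowest Nlrp3-/- library 446.7 CPM. The rise was 1.53-fold (log2 0.62, SE 0.18, FDR = 0.0295 by edgeR), and 1.07 (FDR = 0.00223 by edgeR) after a joint correction for GC content and length. The longest annotated Cd33 transcript has 5728 bases with 41.3% G or C, against medians of 3362 bases and 49.5% over genes tested. Cd33 kept its call in 3 of 8 fits with a library omitted and in 9 of 10 other alternatives. It was lost without WT replicate 1 or 4 and without Nlrp3-/- replicate 2, 3 or 4, with FDRs of up to 0.0902.

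Treml2 had a mean of 238.8 CPM in WT (SD 108.1, n = 4) against 143.4 CPM (SD 10.5, n = 4) in Nlrp3-/-. WT replicate 3 at 141.3 CPM lay within the Nlrp3-/- range of 130.4 to 152.5 CPM, and the other WT libraries above it. The fall was 1.76-fold (log2 -0.82, SE 0.24, FDR = 0.0313 by edgeR). Without WT replicate 1, at 393.3 CPM the highest, it was -0.48 (FDR = 0.0728 by edgeR), and with library size alone -0.69 (FDR = 0.0605 by edgeR). In the model of all 16 samples it was -0.74 (FDR = 0.146 by edgeR). The call remained in 2 of 8 fits with a library omitted, those without WT replicate 2 or 3.

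Tyrobp and Siglece had an FDR under 0.05, as did 18.1% of genes tested, but a change below the required 1.5-fold. Tyrobp had a mean of 2540.9 CPM in WT (SD 549.7, n = 4) against 4026.0 CPM (SD 412.9, n = 4) in Nlrp3-/-, a log2 difference of 0.58 (SE 0.18, FDR = 0.0362 by edgeR). Siglece had a mean of 172.2 CPM (SD 30.5, n = 4) against 260.0 CPM (SD 22.2, n = 4), a difference of 0.51 (SE 0.16, FDR = 0.0384 by edgeR). After correction for GC content and length these were 0.20 (FDR = 0.475) and 0.19 (FDR = 0.473), and the transcripts of both are above the median of genes tested in GC content (54.8% and 53.2%, against 49.5%). With no correction of this kind, Tyrobp was called with DESeq2 (0.60, FDR = 0.00567), with DESeq2 size factors in edgeR (0.60), by library size alone (0.69), by upper-quartile scaling (0.64) and in the model of all 16 samples (0.66), and Siglece by library size alone (0.63). Without WT replicate 3, the count of called members was 5, with Tyrobp at 0.75 (FDR = 0.0083), Siglece at 0.60 (FDR = 0.0282) and Sirpa at 0.91 (FDR = 0.0463) added. It was 0 without WT replicate 1 or 4 or Nlrp3-/- replicate 2, 3 or 4, and 1 without Nlrp3-/- replicate 1.

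The remaining G-MDSC members did not pass the test. Hcst had a mean of 305.1 CPM in WT (SD 52.8, n = 4) against 421.6 CPM (SD 41.6, n = 4) in Nlrp3-/-, a log2 difference of 0.38 (SE 0.16, FDR = 0.118 by edgeR). Sirpa was 0.59 (SE 0.31, FDR = 0.198), with WT libraries at 251.3 and 252.0 CPM in replicates 1 and 2 against 728.3 and 630.0 CPM in replicates 3 and 4. Trem1 was 0.35 (SE 0.19, FDR = 0.219), Cd300lf 0.28, Pilra 0.11 and Trem3 0.01 on the log2 scale. The plot of genotype effects sets both subsets side by side for each member.

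**Figure D4:**
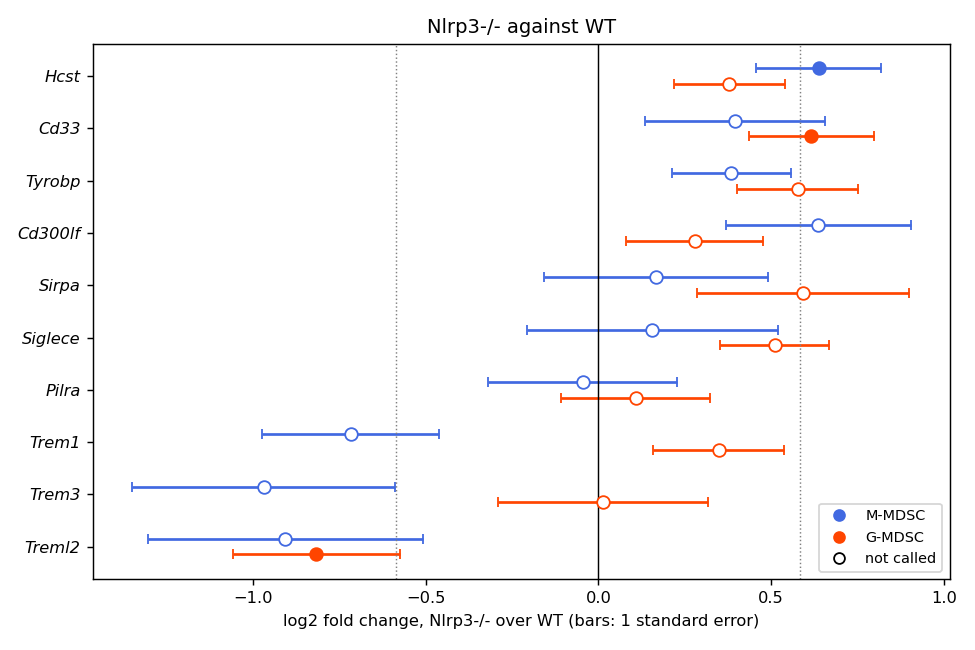
log2 fold change of Nlrp3-/- over WT in M-MDSCs and G-MDSCs for the 10 genes, with bars of 1 standard error, open points for genes not called and dotted lines at 1.5-fold. Filled points mark Hcst in M-MDSCs and Cd33 and Treml2 in G-MDSCs.

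Markers of other cell types moved with genotype. The 8 red pulp macrophage markers summed to 80.1 to 89.0 CPM in WT and 152.6 to 286.5 CPM in Nlrp3-/- M-MDSCs, with 4 of 8 called higher. In G-MDSCs they summed to 98.0 to 239.0 CPM in WT and 378.2 to 519.8 CPM in Nlrp3-/-, with 6 of 8 called higher. All 8 had counts in every group. The 6 NK cell markers summed to 47.0 to 97.8 CPM and 126.3 to 193.9 CPM in M-MDSCs, and to 35.1 to 60.0 CPM and 79.9 to 121.6 CPM in G-MDSCs. Macrophages express Sirpa, and macrophages and NK cells express the adaptor genes Tyrobp and Hcst. The part of these cells in the higher Hcst, Tyrobp, Cd33 and Siglece levels was not tested. In G-MDSCs the 8 monocyte markers also stood apart by genotype, at 785.9 to 1090.0 CPM in WT and 1122.4 to 1345.3 CPM in Nlrp3-/-, as did the dendritic cell markers, at 211.4 to 262.5 CPM and 269.2 to 311.5 CPM. Their part in the G-MDSC results was not tested either. In M-MDSCs both sums overlapped between genotypes. The 9 eosinophil markers summed to 18.2 to 43.4 CPM and 39.5 to 82.1 CPM in M-MDSCs, and to 30.7 to 56.4 CPM and 61.6 to 66.5 CPM in G-MDSCs, with the eosinophil granule gene Prg3 at 0 in both G-MDSC groups and Epx at 0 in Nlrp3-/- G-MDSCs.

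Whether the genotype effect differed between the subsets was tested as an interaction over all 16 libraries, and 0 of 10 members were called by edgeR, with 2 (Trem1 and Trem3) at an unadjusted p under 0.05. Of all 10696 genes tested, 0.028% were called and 4.49% had an unadjusted p under 0.05. Trem1 had the largest difference, with the G-MDSC effect above the M-MDSC effect by 1.19 on the log2 scale (SE 0.33, unadjusted p = 0.00167, FDR = 0.79 by edgeR). Trem3 differed by 1.11 (unadjusted p = 0.0409, FDR = 0.992 by edgeR). DESeq2 called 0 members as well. The main fit took the 16 libraries as independent, although M-MDSCs and G-MDSCs came from the same mice. In 23 alternative settings, the mouse as a block among them, 0 members were called. There the Trem1 difference ran from 0.916 to 1.375 on the log2 scale, with FDRs down to 0.0722 by edgeR or DESeq2.

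Other genes of the receptor families and their pathways were also called between genotypes. Of all genes tested, 3.51% were called higher and 7.1% lower in M-MDSCs, and 4.7% higher and 11.7% lower in G-MDSCs. The counts of this and the following lists were not tested against these shares. In the other TREM, SIRP, Siglec, PILR and CD300 genes, Siglecg, a B cell Siglec, rose in M-MDSCs by 0.70 on the log2 scale (SE 0.19, FDR = 0.0346 by edgeR), 1 of 14 tested. In G-MDSCs 2 of 11 rose, Cd22, another B cell Siglec, by 0.60 (SE 0.18) and Siglecg by 0.62 (SE 0.20). The summed B cell markers were 92.9 to 128.9 CPM in WT and 78.7 to 151.5 CPM in Nlrp3-/- M-MDSCs, and 232.5 to 314.3 CPM and 210.2 to 310.9 CPM in G-MDSCs, so that their groups overlapped.

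Of the other paired receptors, Ceacam1, an ITIM receptor, fell in M-MDSCs by 0.71 (SE 0.21), 1 of 21 tested. In G-MDSCs 4 of 22 fell and 0 rose. Ceacam1 fell by 1.25 (SE 0.20), from 104.0 to 203.7 CPM in WT to 59.2 to 76.1 CPM in Nlrp3-/-. Pira2 fell by 3.92 (SE 0.69), from 5.33 to 48.0 CPM to 0.524 to 2.69 CPM, but belongs to a family of near-identical genes. Cd244 fell by 0.85 and Clec5a fell by 0.63.

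Of the ITAM pathway genes in M-MDSCs, 1 of 29 rose, Lat2, and 3 fell, Sos1, Vav3 and Malt1. Lat2 was 155.5 to 267.5 CPM in WT and 312.1 to 596.9 CPM in Nlrp3-/- M-MDSCs (log2 fold change 1.02, SE 0.21). Sos1 fell by 1.35, Vav3 fell by 1.10 and Malt1 fell by 0.96. In G-MDSCs, 3 of 29 rose and 5 fell. Vav3, a guanine nucleotide exchange factor downstream of ITAM receptors, fell by 1.52 (SE 0.21), from 84.7 to 123.3 CPM in WT to 29.8 to 51.0 CPM in Nlrp3-/-, and Pik3ap1 fell by 1.85 and Pik3r1 fell by 0.83. Ptk2b, a focal adhesion kinase relative, rose by 0.75.

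In the list of ITIM effectors and brakes, 1 of 19 tested genes rose and 3 fell in each subset. The 3 that fell were Cbl, Ptprc and Ptpn11 in both, and Ptprc, described below, also acts in activation. The ubiquitin ligase gene Cbl was 155.6 to 171.8 CPM in WT and 62.6 to 103.2 CPM in Nlrp3-/- M-MDSCs (log2 fold change -1.03, SE 0.17), and -1.21 (SE 0.17) in G-MDSCs. Ptprc, which encodes CD45, the receptor phosphatase that activates Src kinases, was 1527.1 to 2285.8 CPM in WT and 800.3 to 1195.5 CPM in Nlrp3-/- M-MDSCs. In G-MDSCs it was 4635.0 to 5382.2 CPM in WT and 2089.3 to 2447.9 CPM in Nlrp3-/-, a fall of 1.2 (SE 0.15) on the log2 scale. Ptpn11, which encodes SHP-2, fell by 0.88 in M-MDSCs and fell by 0.93 in G-MDSCs. Dok1 rose by 0.84 in M-MDSCs and Csk, the kinase that restrains Src kinases, by 0.62 in G-MDSCs. Of the ligand and sialic acid genes, Hmgb1 fell by 1.59 in M-MDSCs (1 of 19) and fell by 1.52 in G-MDSCs (1 of 18), from at most 13.8 CPM in WT to at most 3.92 CPM in Nlrp3-/-.

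Members were then compared in pattern with one another and with all genes. Likeness was measured as the root mean square difference of log2 CPM over the 16 libraries, after each gene's mean was taken off. The closest member pairs were Siglece and Cd300lf (0.48) and Trem3 and Pilra (0.53), followed by Siglece and Pilra, Tyrobp and Hcst, and Trem1 and Cd33 (0.60 each). Over 10696 genes, Tyrobp was nearest to Rabac1 (0.15), Map1lc3b (0.16) and Hcls1 (0.17), and Hcst to Slc27a4 (0.17), R3hdm4 (0.21) and Rnf167 (0.23). Trem1 was nearest to Plk3 (0.35), the chemokine receptor gene Ccr1 (0.38) and Lrrc27 (0.39), and Cd300lf to Grina (0.29), Arap3 (0.34) and Ggt5 (0.35). Cd33 was nearest to Dennd3 (0.32), Carns1 (0.36) and Tns1 (0.36), and Pilra to Dhrs7 (0.32), Cebpd (0.35) and Sepn1 (0.35). For Treml2 the nearest were Ncf1 (0.33), Elovl7 (0.41) and Polr1a (0.41), for Siglece Scnn1a (0.34), Entpd1 (0.37) and 5830416P10Rik (0.39), and for Trem3 Srgn (0.44), Hnmt (0.45) and Txn1 (0.46). All of these genes were measured in the same libraries, which share depth and sorting. The group means of Sirpa spanned 0.92 on the log2 scale, too little for this comparison.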

How the data were processed

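Spleen M-MDSCs and G-MDSCs of 4 WT and 4 Nlrp3-/- B16.F10-bearing mice were profiled with a stranded 3′ mRNA kit. The authors aligned reads to mm10 with HISAT2 (version 2.1.0) and counted them per gene with HTSeq by strand. The deposited values are raw counts per gene symbol, 1 file per library. Reads of the 3′ end give no levels per length, so levels were not compared between genes.

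Groups came from the labels. Counts were tested with edgeR (version 4.0.16, R 4.3.3) quasi-likelihood fits, TMM scaling and filterByExpr, within each 8-library comparison and over all 16 libraries for the interaction, with Benjamini-Hochberg adjustment over all genes tested. A call needed an FDR under 0.05 and over 1.5-fold. Levels are TMM-scaled CPM. Fold changes came from the fits and can differ from ratios of mean CPM. No 2 of the 24 within-group pairs of libraries were identical (chi-square per degree of freedom 6.76 to 50.6). The fits were tested on simulated data. DESeq2 (version 1.42.0), other scalings and filters, GC and length correction, blocks and leaving out each library were alternatives. Of 24421 symbols, 24053 matched GENCODE M21. GC content and length are those of the longest transcript of each symbol, which need not describe the 3′ ends that were read. Matches in promoters were counted in Python 3.11.15.

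Same-numbered M-MDSC and G-MDSC libraries carry the same spleen name in the sample descriptions, and each sample is 1 mouse by the labels. They were therefore taken to come from the same mouse, although the main fits between subsets had no block for it. Their deviations from group means correlated at 0.10 to 0.40 in WT and 0.01 to 0.38 in Nlrp3-/-. The highest correlation with a G-MDSC library of another number was below the same-numbered value for replicates 1, 3 and 4 of both genotypes. For replicate 2 it was above that value, at 0.12 against 0.10 in WT and 0.10 against 0.01 in Nlrp3-/-. Same-numbered WT and Nlrp3-/- libraries are different mice.

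The members, gene lists and tests were chosen with earlier results of these data known. Named are all members, Nlrp3, the up to 4 called genes of each list with the smallest p in each comparison, and the 3 genes nearest in pattern to each member whose group means span at least 1 on the log2 scale. Trem2 and Treml4 were added after their values were seen. Libraries of a group come from different mice.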

Additional observations from a re-analysis of the deposited data

Results flagged for a closer look

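In 2 of the 40 groups of 4 member values, 1 library lay apart by Dixon's criterion at the 95% level, and chance alone flags about 1 in 20 groups. Treml2 was 91.8 CPM in M-MDSC WT replicate 1 and 22.6 to 31.5 CPM in the other libraries of its group. Hcst was 34.5 CPM in M-MDSC WT replicate 4 and 51.8 to 53.0 CPM in the others.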

How the results depend on the processing

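The 9 members higher in G-MDSCs kept their calls under every alternative run, in both genotypes, and the count of called members was 9 in WT and 9 to 10 in Nlrp3-/- when each library was left out. The genotype counts depended on the settings. In M-MDSCs the main count of 1 member became 2 with DESeq2, 2 in the model of all 16 samples, 0 with the replicate block, 0 with the correction for GC content and length, 0 with both, and 0 to 4 when each library was left out. All genes called numbered 425 with the block, 663 with the correction, 83 with both and 450 to 1783 without a library, and genes of the 5 lists 17 by library size only, 6 with the block, 0 with both and 7 to 19 without a library. In G-MDSCs the main count of 2 members became 0 with the block, 1 with block and correction, 4 with no fold change minimum and 0 to 5 without a library. All genes called numbered 985 with the block, 952 with the correction, 455 with both and 1104 to 1544 without a library, and list genes 11 with the block, 8 with both and 10 to 21 without a library. The interaction called 9 genes with DESeq2, 5 with no filter and 2 to 5 without a library. The WT and Nlrp3-/- numbers pair nothing (correlations of same-numbered libraries -0.45 to 0.02 in M-MDSCs and -0.26 to -0.04 in G-MDSCs), so a call lost under that block does not describe a weaker effect. The mouse block changed no member's call between subsets other than that of Sirpa in Nlrp3-/-, which rose (0.73, FDR = 0.00141 by edgeR).

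Directions reversed in members without a call (log2 fold changes). In M-MDSCs, Sirpa was -0.092 with block and correction and -0.128 to 0.39 without a library. Siglece was -0.063 with the correction, -0.091 with both and -0.229 to 0.498 without a library. Pilra was 0.06 by library size only and -0.355 to 0.222 without a library. In G-MDSCs, Trem3 was -0.177 with the correction, -0.126 with both and -0.217 to 0.239 without a library. Hcst was -0.011 with the correction. Pilra was -0.051 to 0.306 without a library. Between subsets in WT, Sirpa was -0.535 by library size only, -0.032 by upper-quartile scaling and -0.089 to 0.416 without a library, and in Nlrp3-/- -0.11 by library size only. The interaction of Treml2 was -0.496 to 0.545 without a library. The cause was not tested in any of these.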
